A study of Arabidopsis thaliana with 12 samples.

Results

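The SWEET genes of Arabidopsis thaliana are described here across 12 ATH1 arrays of seedlings. The members are the 14 probe sets that the platform annotation pairs with 1 gene and names SWEET with a number, out of 13513 probe sets paired with 1 gene and 22746 considered. They cover SWEET1, SWEET2, SWEET3, SWEET4, SWEET6, SWEET7, SWEET8, SWEET9, SWEET10, SWEET11, SWEET13, SWEET14, SWEET16 and SWEET17. The family has 17 genes by locus, of which 16 are paired with a probe set. SWEET15 and SWEET5 are paired under other names, SAG29 and AtVEX1, so the naming rule does not choose them, and SWEET12 is not analysed here.

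All seedlings came from cold-treated seed and grew on agar with 1% sucrose, so an external sugar supply was shared by every group, wild types included. The groups of 2 arrays each were ein2 at 14 d and its wild type Col-0 at 14 d, aba2 at 12 d and the wild type Col-7 at 12 d, and etr1 at 12 d and the wild type Col-0 at 12 d. The design text names the alleles as etr1-1, ein2-1 and aba2, the last also called gin1-3. ETR1 is an ethylene receptor and EIN2 carries the ethylene signal onward from the receptors. ABA2 is an enzyme of abscisic acid synthesis. No label ties aba2 to either wild type of its age, so aba2 is given against Col-7 and against Col-0. The sample titles do not tie etr1 to either of them. Its log2 changes are given against Col-0 at 12 d only, and its signals are also set against those of Col-7. The levels of ETR1, EIN2 and ABA2 were not reported here because these genes are not among the paired ones.

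SWEET proteins are membrane channels that let sugars move down their concentration gradient, without the proton coupling that drives sucrose carriers. Plants use them to pass sugar out of cells, for example from phloem parenchyma into the space from which the phloem is loaded, and to move sugar across the vacuole membrane. The family falls into clades I to IV. Clades I and II mostly carry hexoses, clade III mostly carries sucrose, and clade IV lies in the vacuole membrane and carries fructose and other sugars.

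The deposited values are MAS5 signal intensities on a linear scale, with the same trimmed mean of about 500.04 on each array. Signals of different probe sets are not compared, because probes differ in brightness. Changes are given as log2 of signal + 50, with the standard error of 1 limma fit to all 12 arrays, and a two-sided Benjamini-Hochberg adjusted p over 13648 probe sets with a threshold of 0.05. Per the series' design text the arrays were run as 2 independent sets, but it does not say whether the 2 arrays of a group came from separate cultures, so p-values measure only the spread between arrays, which may be technical. An exact permutation test of 2 arrays against 2 cannot give a p below 0.333. The replicates of Col-0 at 12 d differed more than the others (SD of the log2 difference between replicates 0.606, against 0.227 to 0.469 in the other groups), which touches every comparison with that group. The 3 paired pollen markers (MGH3, ANX1 and PGA3) stayed at or below 26.24 on all arrays. Of 6 markers listed for green shoot tissue only RCA was paired, at 20340 to 29110, and of 7 for root tissue only PER45, at 556.2 to 2205. No listed marker of phloem companion cells or seed was paired.

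Of the 14 genes, 7 had a mean signal over all arrays above the filter of 122.3 and were tested: SWEET1 and SWEET2 of clade I, SWEET10, SWEET11 and SWEET13 of clade III, and both clade IV genes, SWEET16 and SWEET17. No clade II gene passed. The gene just above the filter was SWEET10 (mean 124.9) and the gene just below it SWEET4 (mean 99.85). A gene that passed because it was bright in 1 group was bound to differ between groups, so counts over the genes tested are descriptions.

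In clade I, SWEET1 (AT1G21460), a glucose transporter of the plasma membrane, had signals of 289.3 and 350.2 in ein2 and of 594.8 and 562.7 in Col-0 at 14 d. At 12 d SWEET1 had 554.2 and 266.9 in aba2, 393.8 and 341.0 in etr1, 448.4 and 530.6 in Col-7, and 650.5 and 241.6 in Col-0. In order of the means, only Col-0 at 14 d, the highest group, stood clear of the next, Col-7. The arrays of Col-0 at 14 d overlapped with those of Col-0 at 12 d, whose replicates alone spanned 2.69-fold. SWEET2 (AT3G14770), a sugar transporter of the vacuole membrane known from root cells, had 443.9 and 422.4 in ein2, against 658.6 and 545.8 in Col-0 at 14 d. Its signals at 12 d were 539.8 and 298.2 in aba2, 267.7 and 235.0 in etr1, 404.6 and 297.2 in Col-7, and 341.0 and 219.5 in Col-0. Again only Col-0 at 14 d stood clear of the next group, ein2, and the other neighbours in the order overlapped. SWEET3 (AT5G53190) lay between 2.163 and 49.99 on all arrays, with every neighbouring pair of groups overlapping.

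In clade II, SWEET4 (AT3G28007), a hexose transporter of the plasma membrane found in veins, was the only gene chosen by the naming rule that exceeded 50 on any array. SWEET4 had 114.5 and 131.1 in ein2, against 40.07 and 66.21 in Col-0 at 14 d. At 12 d its signals were 33.34 and 42.59 in aba2, 146.9 and 130.2 in etr1, 164.6 and 173.4 in Col-7, and 102.7 and 52.54 in Col-0. In order of the means Col-7 came first, clear of etr1, then ein2, clear of Col-0 at 12 d, while Col-0 at 12 d, Col-0 at 14 d and aba2 overlapped each with the next. SWEET6 (AT1G66770) ran from 19.4 to 46.33 and SWEET7 (AT4G10850) from 8.57 to 36.93. SWEET8 (AT5G40260), needed for the pollen wall, ran from 4.51 to 38.83. Neighbouring groups overlapped for all 3.

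**Figure D1:**
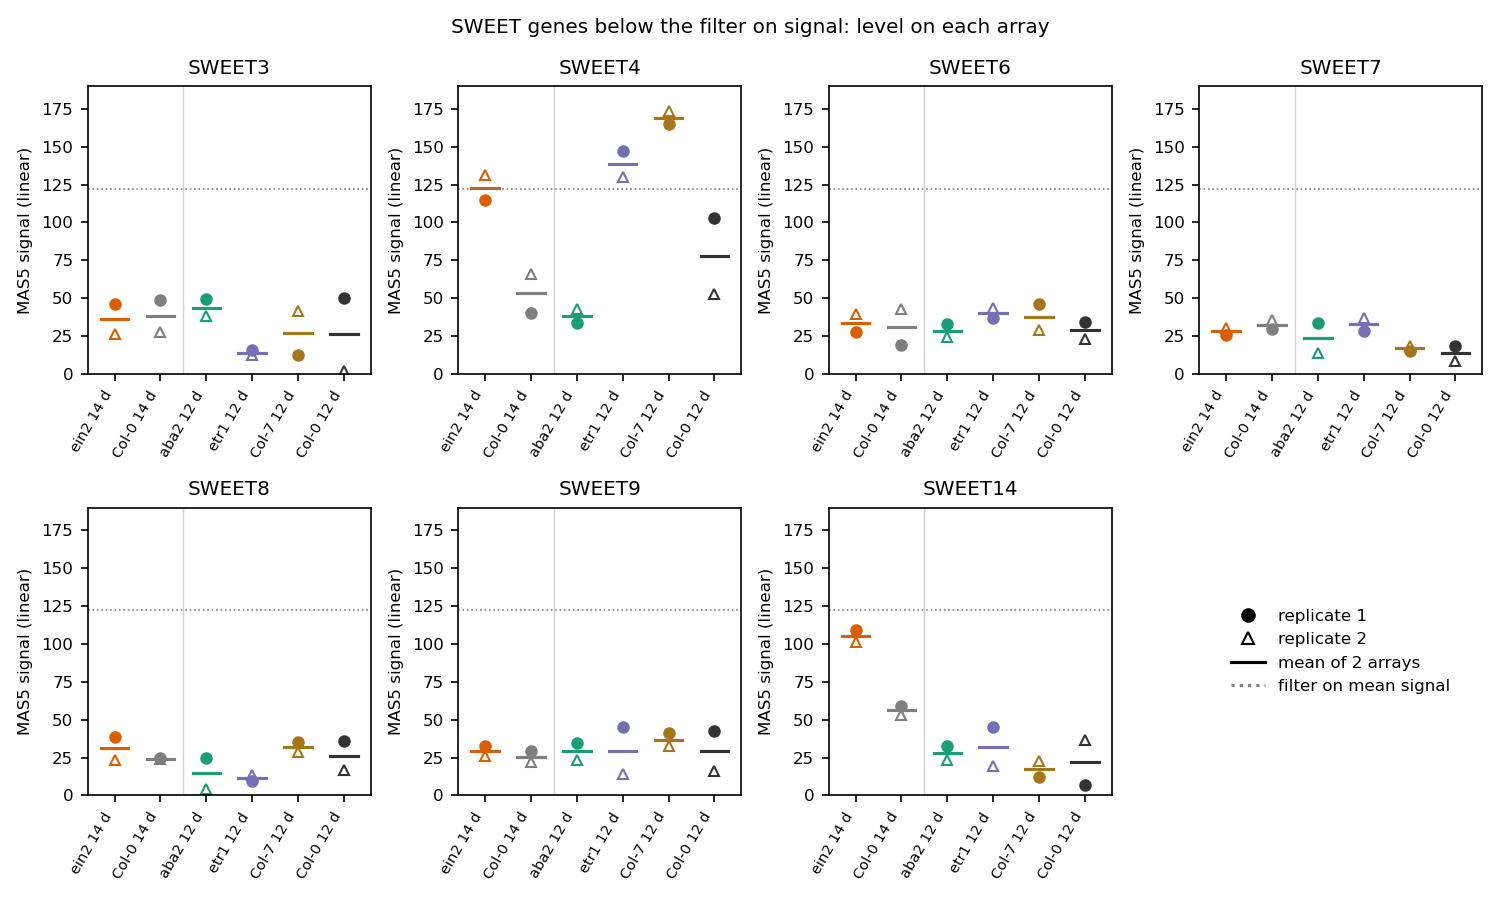
MAS5 signal (linear axis) of the 7 SWEET genes under the filter on each of the 12 arrays, with filled circles for replicate 1, open triangles for replicate 2, a bar for the mean of the 2 arrays and a dotted line at the filter of 122.3. SWEET4 lies between 114.5 and 173.4 in ein2, etr1 and Col-7 and between 33.34 and 102.7 in the other groups, and SWEET14 is highest in ein2.

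In clade III, SWEET11 (AT3G48740), which exports sucrose from phloem parenchyma cells, varied least among the genes tested. Its signals were 4333 and 5149 in ein2 and 3592 and 3281 in Col-0 at 14 d. At 12 d SWEET11 had 3216 and 4344 in aba2, 3729 and 4831 in etr1, 3288 and 3068 in Col-7, and 4060 and 3678 in Col-0. The highest group mean was 1.49 times the lowest, and no neighbouring groups in the order were clear of each other. SWEET9 (AT2G39060), the sucrose exporter of nectaries, ran from 14.25 to 44.88 with all neighbours overlapping. SWEET14 (AT4G25010), which carries sucrose and gibberellin, had 109.5 and 101.5 in ein2, against 59.06 and 53.21 in Col-0 at 14 d, and 7.097 to 45.23 on the arrays at 12 d. Here ein2 was clear of Col-0 at 14 d, and Col-0 at 14 d was clear of every group at 12 d.

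The clade III genes SWEET10 (AT5G50790) and SWEET13 (AT5G50800) are direct neighbours, with 0 annotated genes between them in the RefSeq gene table. SWEET10, a sucrose transporter known from the shoot apex at the switch to flowering, had 35.26 and 59.86 in ein2, against 266.7 and 218.3 in Col-0 at 14 d. At 12 d SWEET10 had 317.4 and 186.5 in aba2, 44.44 and 40.66 in etr1, 6.719 and 177.9 in Col-7, and 33.63 and 111.9 in Col-0. Its high groups were aba2 and Col-0 at 14 d, which overlapped, and its Col-7 replicates differed 26.5-fold. SWEET13, which carries sucrose and gibberellin like SWEET14, had 289.0 and 453.8 in ein2, against 134.3 and 223.2 in Col-0 at 14 d. At 12 d SWEET13 had 91.67 and 68.66 in aba2, 153.8 and 149.8 in etr1, 416.3 and 228.3 in Col-7, and 370.2 and 61.69 in Col-0. It was low in aba2, clear of etr1, and its replicates of Col-0 at 12 d spanned the range of nearly all other arrays.

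In clade IV, SWEET16 (AT3G16690), which carries glucose, fructose and sucrose across the vacuole membrane, had 575.2 and 580.3 in ein2 and 688.9 and 645.0 in Col-0 at 14 d. At 12 d SWEET16 had 335.0 and 278.6 in aba2, 359.1 and 281.3 in etr1, 291.2 and 194.5 in Col-7, and 229.4 and 291.6 in Col-0. All arrays at 14 d lay above all arrays at 12 d, and the groups at 12 d overlapped. SWEET17 (AT4G15920), the fructose transporter of the vacuole membrane, had 1952 and 1992 in ein2, against 1036 and 1294 in Col-0 at 14 d. At 12 d SWEET17 had 1266 and 1149 in aba2, 1612 and 1493 in etr1, 1347 and 888.7 in Col-7, and 1300 and 733.1 in Col-0. Here ein2 was clear of etr1 and etr1 of aba2, and aba2 and the wild types overlapped.

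**Figure D2:**
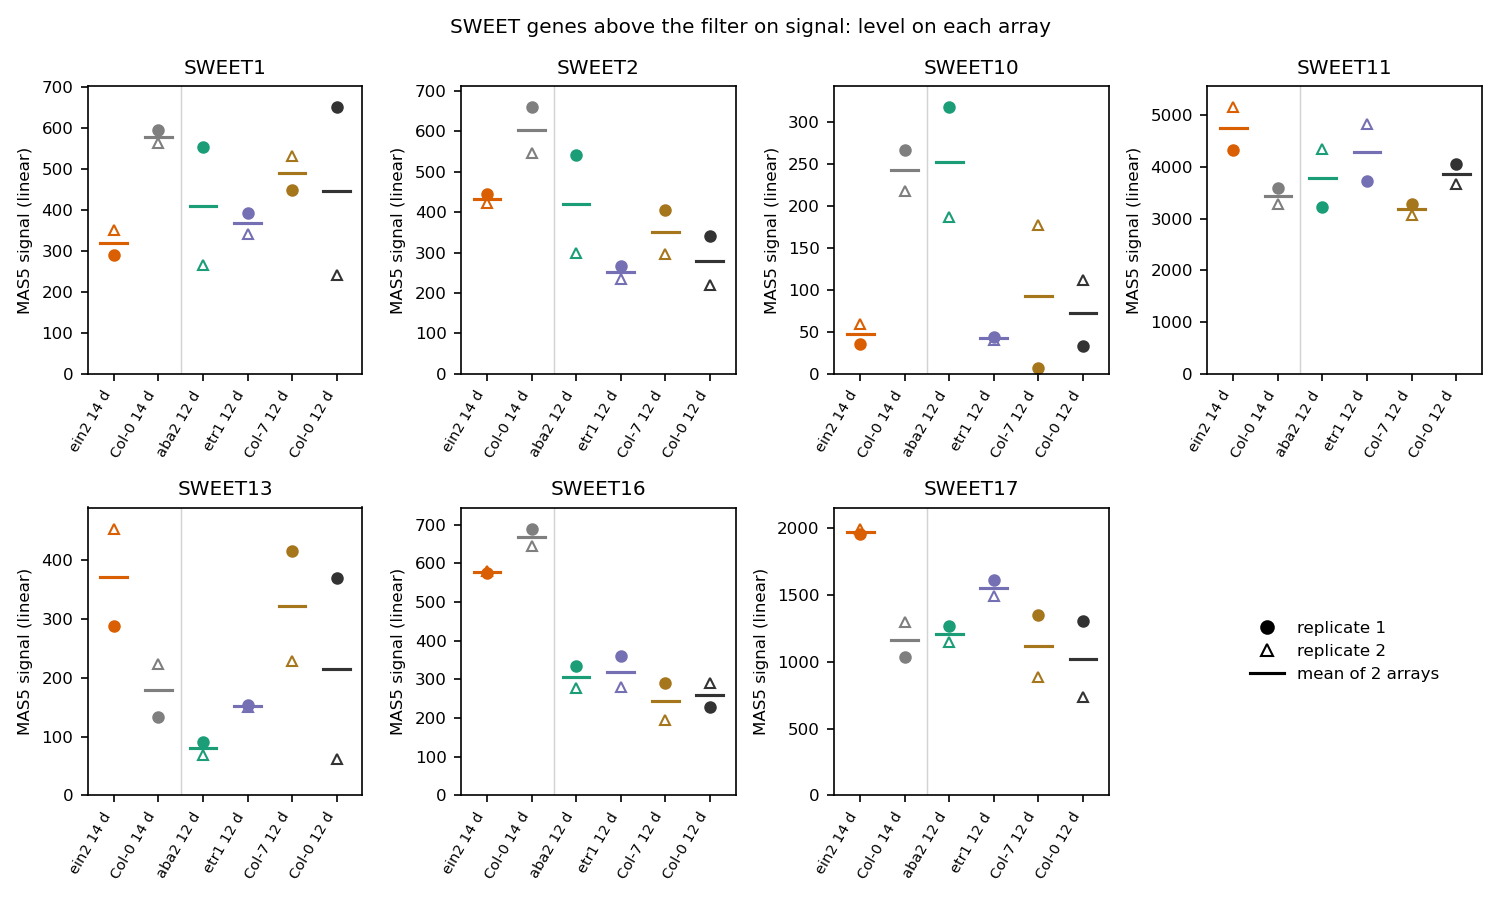
MAS5 signal (linear axis from 0) of the 7 SWEET genes above the filter on each array, with filled circles for replicate 1, open triangles for replicate 2, a bar for the mean of the 2 arrays and a line between the ages. SWEET16 lies at 575.2 or above at 14 d and at 359.1 or below at 12 d, SWEET17 is highest in ein2 and etr1, and SWEET10 is high in Col-0 at 14 d and in aba2.

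Col-0 at 14 d against Col-0 at 12 d asks how the genes differ with age in the same genotype. SWEET16 rose by 1.21 ± 0.195 on the log2 scale (95% interval 0.78 to 1.65, limma adjusted p = 0.00579), with mean signals of 667.0 ± 31.1 at 14 d and 260.5 ± 44.0 at 12 d (SD, n = 2 each). SWEET2 rose by 1.00 ± 0.263 (0.42 to 1.58, limma adjusted p = 0.0498), with means of 602.2 ± 79.8 at 14 d and 280.2 ± 86.0 at 12 d. Both code for transporters of the vacuole membrane, as does SWEET17, whose arrays overlapped between the ages (0.23, limma adjusted p = 0.685). No other SWEET gene tested passed, so 2 of 7 were called, both higher, where 6.48% of all probe sets were called and 4.61% were called higher. In bulk tissue, fewer cells of a type and less RNA per cell cannot be told apart.

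The sucrose transporter SWEET10 differed by 1.32 ± 0.537 (limma adjusted p = 0.197), with both arrays at 14 d above both at 12 d, and its level at 14 d was 3.33 times that at 12 d. With an offset of 150 the change was 0.84. SWEET11 (-0.17), SWEET17 (0.23), SWEET1 (0.48) and SWEET13 (0.05) did not pass, and of these only SWEET11 had arrays that did not overlap. Over all 14 genes, 6 did not overlap (43.9% of all probe sets), 5 being higher (23.3%) and 1 lower (20.6%) at 14 d. The genes under the filter among them were SWEET14 (log2 change 0.59) and SWEET7 (0.38), both higher at 14 d. SAG101, the only paired senescence marker of 7 listed, was also higher at 14 d (192.1 and 180.9, against 75.17 and 102.7 at 12 d). SWEET15, also named SAG29 and linked to leaf senescence, was on the lower side at 14 d (log2 change -1.14, limma adjusted p = 0.236), with overlapping arrays. The part of either gene in the result was not tested. The call of SWEET16 was lost without Col-0 at 14 d replicate 1 (adjusted p = 0.0749) and with the 4 arrays fitted alone (adjusted p = 0.0722). The call of SWEET2 was lost under 9 of 12 alternatives, with adjusted p of 0.0118 to 0.329 over all 12. Among these were the fits without Col-0 at 14 d replicate 1 (0.329), Col-0 at 14 d replicate 2 (0.141) and Col-0 at 12 d replicate 2 (0.132).

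The mutant ein2 against Col-0 at 14 d asks which SWEET transcripts depend on EIN2. SWEET10 was lower in ein2 and the vacuolar fructose transporter SWEET17 was higher, but no SWEET gene passed the test in the fit to all arrays. SWEET10 averaged 47.6 ± 17.4 in ein2 and 242.5 ± 34.3 in Col-0 at 14 d (SD, n = 2 each), a ratio of 0.196 and a log2 change of -1.59 ± 0.537 (95% interval -2.78 to -0.40, limma adjusted p = 0.574). SWEET17 averaged 1972 ± 28.3 in ein2 and 1165 ± 182 in Col-0 at 14 d, a log2 change of 0.74 ± 0.263 (0.16 to 1.33, limma adjusted p = 0.629). The sucrose exporters SWEET11 and SWEET13 were on the higher side (0.45 ± 0.189 and 0.88 ± 0.505, adjusted p = 0.852 and 1.0), and SWEET1 (-0.77 ± 0.376), SWEET2 (-0.43 ± 0.263) and SWEET16 (-0.19 ± 0.195) were on the lower side. None of 7 was called, where 0.374% of all probe sets were, and 3 of 7 had an unadjusted p under 0.05, where 5.37% of all probe sets did.

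The ein2 arrays did not overlap with those of Col-0 at 14 d for any of the 7 genes tested, where 43.3% of the probe sets tested did not overlap. Of the 7 genes 3 were higher in ein2, as were 21.1% of the probe sets tested, and 4 were lower, as were 22.2%. Over all 14 genes, 9 did not overlap (40.6% of all probe sets), 5 being higher (20.5%) and 4 lower (20.0%) in ein2. The median size of the log2 change, without its sign, was 0.74 over the 7 genes and 0.13 over all probe sets tested. Values over the 7 genes are descriptions. SWEET10 (mean 124.9) passed the filter of 122.3 through its high groups, Col-0 at 14 d and aba2. The genes under the filter that were higher on both ein2 arrays were SWEET4 (log2 change 0.75) and SWEET14 (0.55). SAG101 was lower on both ein2 arrays (125.2 and 170.5, against 192.1 and 180.9 in Col-0 at 14 d), and its part in these differences was not tested. In a fit to these 4 arrays alone, whose replicates were close together, 3 genes passed: SWEET10 (limma adjusted p = 0.00249), SWEET1 (0.0202) and SWEET17 (0.0351), where 2.7% of all probe sets did. The size of the SWEET10 change moved with the offset, to -2.16 with 10 and -0.99 with 150. The sign of each of the 7 changes was the same under every alternative in which the gene was tested.

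The mutant etr1 against Col-0 at 12 d asks which SWEET transcripts differ in this ethylene receptor mutant, if Col-0 is its control. SWEET17 was the only gene tested whose arrays did not overlap with those of Col-0, as those of 35.4% of the probe sets tested did not. It had means of 1552 ± 83.8 in etr1 and 1017 ± 401 in Col-0 at 12 d (SD, n = 2 each) and a log2 change of 0.64 ± 0.263 (95% interval 0.05 to 1.22, limma adjusted p = 0.462). None of 7 was called, where 0.462% of all probe sets were, and 1 of 7 had an unadjusted p under 0.05, where 9.76% of all probe sets did. The change of SWEET17 was 1.03 without Col-0 at 12 d replicate 1 (adjusted p = 0.0464, where 3.06% of all probe sets were called) and 0.25 without replicate 2. SWEET16 (0.25), SWEET11 (0.13), SWEET2 (-0.11), SWEET1 (-0.12), SWEET13 (-0.10) and SWEET10 (-0.33) overlapped with Col-0 at 12 d. Among the genes under the filter, SWEET4 was higher on both etr1 arrays (log2 change 0.59, with 0.30 without Col-0 at 12 d replicate 2 and 0.88 without replicate 1), as were SWEET6 (0.20) and SWEET7 (0.38), and SWEET8 was lower (-0.30). Compared with Col-7 in place of Col-0, SWEET4 was lower on both etr1 arrays (146.9 and 130.2, against 164.6 and 173.4). Among the genes tested, SWEET1, SWEET2 and SWEET13 were also lower on both etr1 arrays than on both Col-7 arrays. SWEET13 had 153.8 and 149.8 in etr1, against 416.3 and 228.3 in Col-7. SWEET11 and SWEET17 were higher on both etr1 arrays, and SWEET10 and SWEET16 overlapped. Limma was not run on etr1 against Col-7, and the share of all probe sets without overlap was not counted. Over all 14 genes, 5 did not overlap between etr1 and Col-0, where 34.6% of all probe sets did not.

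The ein2 and etr1 comparisons use different wild type arrays of different ages. SWEET17 was on the higher side in both (0.74 in ein2 and 0.64 in etr1), and SWEET4 likewise (0.75 and 0.59). For etr1 this takes Col-0 as the control. Against Col-7, SWEET17 was still higher on both etr1 arrays, but SWEET4 was lower on both. The test of the difference between the effects found no SWEET gene (0 of 7, where 0.0147% of all probe sets were called), and 0 of 7 had an unadjusted p under 0.05, where 3.54% of all probe sets did. For SWEET17 the etr1 effect minus the ein2 effect was -0.10 ± 0.373 (95% interval -0.93 to 0.72), and for SWEET10 it was 1.26 ± 0.760 (-0.43 to 2.95).

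The mutant aba2 against Col-7 at 12 d asks which SWEET transcripts depend on abscisic acid synthesis, if Col-7 is its control. SWEET13 was lower in aba2 and SWEET10 higher, so these neighbouring genes differed in opposite directions, but neither passed. SWEET13 averaged 80.2 ± 16.3 in aba2 and 322.3 ± 133 in Col-7 (SD, n = 2 each), a log2 change of -1.47 ± 0.505 (95% interval -2.59 to -0.35, limma adjusted p = 0.259). SWEET10 averaged 252.0 ± 92.5 in aba2 and 92.3 ± 121 in Col-7, a log2 change of 1.37 ± 0.537 (0.18 to 2.57, limma adjusted p = 0.330). The change of SWEET10 was 2.38 without Col-7 replicate 2 (adjusted p = 0.0470, where 0.425% of all probe sets were called) and 0.37 without replicate 1. With offsets of 10 and 150 it was 2.18 and 0.81. None of 7 was called, where 0.454% of all probe sets were, and 2 of 7 had an unadjusted p under 0.05, where 12.3% of all probe sets did.

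SWEET4, under the filter, had the lowest group mean in aba2 and the highest in Col-7, at 38.0 ± 6.55 and 169.0 ± 6.22 (SD, n = 2 each). In the fit with no filter on signal its log2 change was -1.32 ± 0.212 (95% interval -1.79 to -0.85, limma adjusted p = 0.0423), where 0.268% of all 22746 probe sets were called. Its signals in aba2 were below the offset of 50, which makes the log2 change smaller than the ratio of the means, 0.225. SWEET16 (0.30), SWEET11 (0.23), SWEET2 (0.19), SWEET17 (0.13) and SWEET1 (-0.30) overlapped between aba2 and Col-7. Over all 14 genes, 5 did not overlap (38.4% of all probe sets), 2 being higher (17.7%) and 3 lower (20.7%) in aba2. The root marker PER45 was higher on both aba2 arrays (1596 and 2096, against 556.2 and 1326 in Col-7, limma adjusted p = 0.353) and the shoot marker RCA was lower (25380 and 21060, against 29110 and 27060, adjusted p = 0.429). Between aba2 and Col-0 at 12 d both markers overlapped (log2 change 0.34 for PER45 and -0.13 for RCA). The senescence marker SAG101 was higher on both aba2 arrays (108.3 and 103.7, against 95.54 and 60.62 in Col-7 and 75.17 and 102.7 in Col-0 at 12 d). SWEET15, linked to leaf senescence, was lower on both aba2 arrays than in Col-7 (log2 change -2.35, limma adjusted p = 0.0832) and overlapped with Col-0 at 12 d. The part of PER45, RCA, SAG101 and SWEET15 in the changes of SWEET4, SWEET10 and SWEET13 was not tested.

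Against Col-0 at 12 d in place of Col-7, none of 7 genes was called in aba2, where 1.62% of all probe sets were. SWEET10 was again higher on both aba2 arrays (log2 change 1.34 ± 0.537, limma adjusted p = 0.332). SWEET13 overlapped with this wild type (-0.74 ± 0.505, adjusted p = 0.649), and its change was -1.70 without Col-0 at 12 d replicate 2 (adjusted p = 0.0229, where 4.29% of all probe sets were called) and 0.22 without replicate 1. SWEET2 (0.48), SWEET17 (0.29), SWEET16 (0.20), SWEET11 (-0.05) and SWEET1 (-0.05) also overlapped. SWEET4 was lower on both aba2 arrays here too (-0.51, adjusted p = 0.441 in the fit with no filter). Over all 14 genes, 2 did not overlap, where 34.1% of all probe sets did not.

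**Figure D3:**
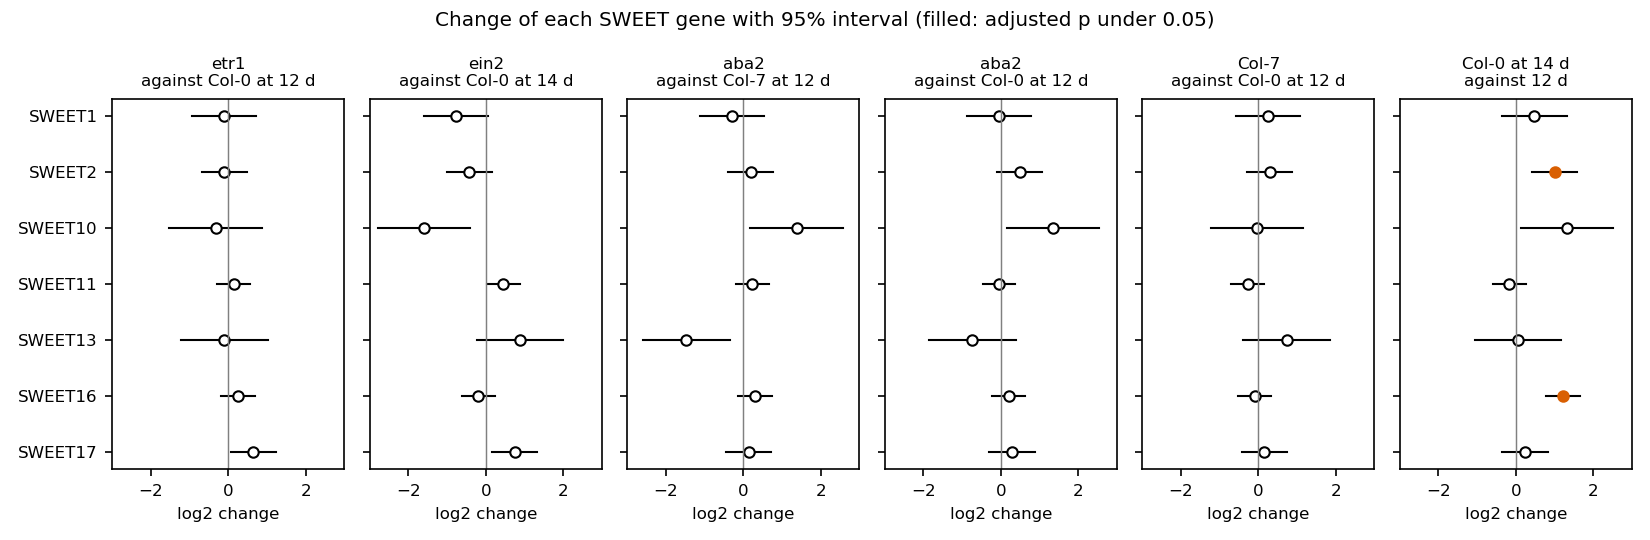
Log2 change of signal + 50 (points) with its 95% interval (lines) from the limma fit to 12 arrays, for the 7 SWEET genes tested, 1 panel per comparison. Only SWEET16 and SWEET2 in Col-0 at 14 d against 12 d have filled points, for an adjusted p under 0.05, and the intervals of SWEET10 and SWEET13 are the widest.

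The wild types Col-7 and Col-0 at 12 d differed in no SWEET gene by the test (0 of 7 called and 0 of 7 with an unadjusted p under 0.05, where 0.0% and 4.79% of all probe sets were). SWEET11 was lower on both Col-7 arrays (log2 change -0.28 ± 0.189, limma adjusted p = 0.975), and SWEET4 was higher on both (0.81, adjusted p = 0.687 in the fit with no filter). SWEET13 differed by 0.73 ± 0.505 (adjusted p = 0.975), with a change of 1.69 without Col-0 at 12 d replicate 1 (adjusted p = 0.0360, where 3.41% of all probe sets were called) and -0.22 without replicate 2. Over all 14 genes, 2 did not overlap, where 24.6% of all probe sets did not.

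**Figure D4:**
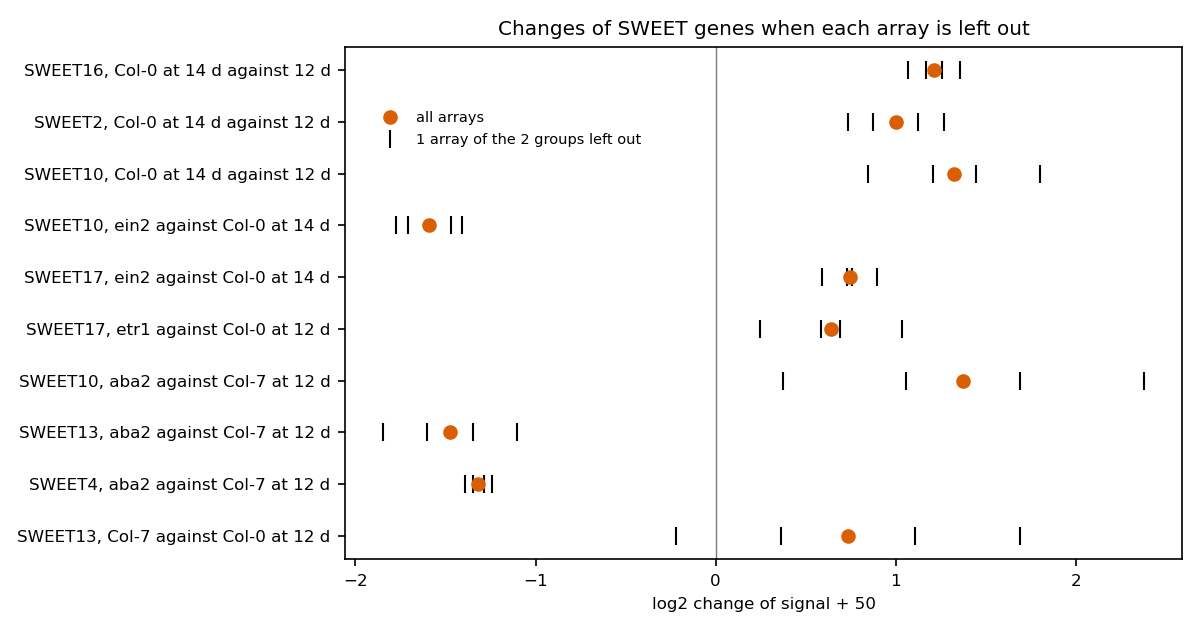
Log2 change of signal + 50 for 10 gene and comparison pairs with all arrays (circles) and with each array of the 2 groups left out in turn (ticks). The ticks of SWEET16 with age run from 1.07 to 1.36 and those of SWEET4 in aba2 against Col-7 from -1.39 to -1.24, while those of SWEET13 in Col-7 against Col-0 lie on either side of 0.

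The effects of aba2 and of the ethylene mutants were compared directly, with Col-7 as the wild type of aba2 and Col-0 as that of etr1 and ein2. For SWEET10 the aba2 effect minus the ein2 effect was 2.97 ± 0.760 (95% interval 1.28 to 4.65, limma adjusted p = 0.121), and for SWEET13 it was -2.36 ± 0.714 (-3.94 to -0.77, adjusted p = 0.200). SWEET10 was higher in aba2 and lower in ein2 than the wild type on every array, and SWEET13 the reverse. None of 7 was called, where 1.05% of all probe sets were. Against the etr1 effect the same differences were 1.71 ± 0.760 for SWEET10 and -1.37 ± 0.714 for SWEET13 (adjusted p = 0.426 and 0.500), and none of 7 was called, where 0.454% of all probe sets were. Leaving out an array gave at most 1 call in each: SWEET13 against the etr1 effect without Col-0 at 12 d replicate 1 (6.24% of all probe sets called), and SWEET10 against the ein2 effect without Col-7 replicate 2 (1.16% called). SWEET13 also passed against the ein2 effect with only those groups fitted (2.27% called). Col-7 against Col-0 at 12 d was itself 0.81 for SWEET4, 0.73 for SWEET13 and -0.03 for SWEET10, so the choice of wild type for aba2 or etr1 bears on the first 2. In the fit with no filter SWEET4 differed in both, by -2.07 ± 0.301 from the ein2 effect (limma adjusted p = 0.0225, where 0.387% of all probe sets were called) and by -1.91 ± 0.301 from the etr1 effect (adjusted p = 0.0388, where 0.211% were).

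SWEET15 (AT5G13170), a sucrose transporter linked to leaf senescence, lies outside the naming rule. SWEET15 had 140.3 and 192.3 in ein2, 57.53 and 160.6 in Col-0 at 14 d, 130.4 and 91.63 in aba2, 92.47 and 63.35 in etr1, 920.4 and 635.9 in Col-7, and 577.8 and 125.7 in Col-0 at 12 d. It was high in Col-7 and on 1 of the 2 arrays of Col-0 at 12 d. Its log2 change in aba2 against Col-7 was -2.35 ± 0.505 (limma adjusted p = 0.0832, and 0.0378 in the fit to these groups only, where 0.0513% of all probe sets were called). In aba2 against Col-0 at 12 d the arrays overlapped and it was -1.05 ± 0.505 (adjusted p = 0.454), with -1.97 without Col-0 replicate 2 (adjusted p = 0.0166) and -0.14 without replicate 1 (0.883). Both Col-7 arrays were above those of Col-0 at 12 d, by 1.30 ± 0.505 (adjusted p = 0.975), with 2.22 without Col-0 replicate 1 (0.0225) and 0.38 without replicate 2. In etr1 against Col-0 it was -1.39 ± 0.505 (adjusted p = 0.383), with -2.31 without Col-0 at 12 d replicate 2 (adjusted p = 0.0263, where 0.762% of all probe sets were called) and -0.47 without replicate 1 (adjusted p = 0.544). With age in Col-0 the SWEET15 arrays overlapped, and the change was -1.14 ± 0.505 (limma adjusted p = 0.236). It was -2.06 without Col-0 at 12 d replicate 2 and -0.22 without replicate 1. In ein2 against Col-0 at 14 d the arrays overlapped too (0.51 ± 0.505). SWEET5 (AT5G62850), known from pollen, ran from 5.818 to 58.17 on all arrays.

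Other genes of sugar transport and sucrose metabolism were read from lists of 65 genes, of which 13 were paired with a probe set and 8 were tested. The list of 9 sucrose carriers had no paired gene. SFP2, a sugar carrier of the ERD6-like family, had 793.5 and 549.0 in Col-0 at 14 d, against 291.4 and 202.2 in Col-0 at 12 d. SFP2 rose by 1.28 ± 0.255 with age (limma adjusted p = 0.0160), and was the only call among these genes in the 6 comparisons of groups. So 1 of the 5 carriers tested in the list of vacuolar, plastid and ERD6-like carriers was higher with age and 0 were lower, where 6.48% of all probe sets were called and 4.61% were called higher. Its median log2 change was 0.34, against 0.00 over all probe sets tested. The other 4 of that list, SFP1 (0.74 ± 0.261, adjusted p = 0.138), VGT2 (0.34), TMT1 (-0.04) and TMT2 (-0.16), did not pass. STP3, a monosaccharide carrier of the plasma membrane, was the only gene tested of 18 in its list, and was called in none of the 6 comparisons.

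The vacuolar invertase VIN1 and the sucrose-phosphate synthase SPS4F were the 2 genes tested of 20 for sucrose cleavage and synthesis, and neither was called in any comparison. In ein2 their log2 changes were 0.28 and 0.42, with SPS4F at 1836 and 2037 in ein2, against 1339 and 1532 in Col-0 at 14 d. In aba2 against Col-7, SPS4F was on the lower side (-0.61 ± 0.298, limma adjusted p = 0.437) and TMT1, which loads sugar into the vacuole, on the higher side (0.50 ± 0.180, adjusted p = 0.284). TMT1 had 901.7 and 918.5 in aba2, against 576.5 and 681.2 in Col-7, without overlap. Both changes were smaller against Col-0 at 12 d, at -0.12 for SPS4F and 0.20 for TMT1 (limma adjusted p = 0.936 and 0.750). SPS4F overlapped there, and TMT1 did not (733.0 and 842.0 in Col-0).

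The genes whose signals ran most like those of the genes called were found among 7258 named genes tested, by Pearson correlation of log2(signal + 50) over the 12 arrays. For SWEET16 they were AT1G74450 (r = 0.959), AT2G14910 (r = 0.956) and AT1G17620 (r = 0.950), which all had their highest group means at 14 d. AT1G74450 averaged 2061 in ein2 and 2471 in Col-0 at 14 d. At 12 d it averaged 658.5 in aba2, 579.2 in etr1, 476.5 in Col-7 and 313.8 in Col-0. For SWEET2 they were AT1G75860 (r = 0.938), AT2G06000 (r = 0.917) and AT3G44630 (r = 0.916). AT3G44630 averaged 699.7 in ein2 and 1288 in Col-0 at 14 d. At 12 d it averaged 1002 in aba2, 355.9 in etr1, 644.2 in Col-7 and 443.8 in Col-0. The arrays share groups of 2 and a common scaling, so these values only describe likeness.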

How the data were processed

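Total RNA of 12 seedling samples was hybridised to ATH1 arrays. The deposited signal intensity values were made by the authors with MAS5, per the labels and the design text, and no detection calls were used here. Intensities were brought to a common 2% trimmed mean (500.038 to 500.048 before), 50 was added and log2 was taken. The 64 control probe sets were left out. Probe sets under the 40th percentile of mean signal (122.3) were left out, and 13648 of 22746 were tested. One limma 3.58.1 fit (R 4.3.3) of 6 group means to all 12 arrays, with eBayes trend, 6 residual and 4.35 prior degrees of freedom, gave two-sided p-values, adjusted by Benjamini-Hochberg over the 13648. The procedure was tested on simulated data. Array medians ran from 187.9 to 213.8, and the number of arrays limits precision. Names come from the platform annotation, and neighbouring genes from the RefSeq table of assembly TAIR10.1. No sequences are shown.

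Every SWEET gene is named. Similar genes are the 3 with the highest correlation to each SWEET gene called. The members and lists were chosen with earlier results of these data known. Alternatives were quantile normalization, an offset of 10 or 150, no filter, a filter at the 60th percentile, no trend, the replicate number as a block, a fit to the groups compared only, and leaving out each array in turn.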

Additional observations from a re-analysis of the deposited data

Results flagged for a closer look

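SWEET4 was lower on every aba2 array than on every Col-7 array and higher on every etr1 array than on every array of Col-0 at 12 d, and the aba2 effect minus the etr1 effect was -1.91 on the log2 scale. It was also higher on every ein2 array than on every array of Col-0 at 14 d, and the aba2 effect minus the ein2 effect was -2.07. SWEET4 lies under the filter, so these differences were tested only in the fit with no filter (limma adjusted p = 0.0388 and 0.0225). Both values take Col-7 as the wild type of aba2, which the labels do not settle: against Col-0 at 12 d the aba2 change was -0.51 (limma adjusted p = 0.441) in place of -1.32. The etr1 effect takes Col-0 at 12 d, and Col-7 was itself 0.81 above that group. Both etr1 arrays (146.9 and 130.2) lay below both Col-7 arrays (164.6 and 173.4). So against Col-0 at 12 d aba2 was lower and etr1 higher, but against Col-7 both mutants were lower. The lowest SWEET4 signals, 33.34 and 42.59 in aba2, are below the offset of 50.

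SWEET10 was higher on every aba2 array than on every Col-7 array and lower on every ein2 array than on every array of Col-0 at 14 d, with a difference between the effects of 2.97 (limma adjusted p = 0.121). SWEET13, its neighbour, went the opposite way in both mutants, with a difference of -2.36 (adjusted p = 0.200). This holds with Col-7 as the wild type of aba2: against Col-0 at 12 d SWEET13 overlapped (-0.74, limma adjusted p = 0.649) and was 0.22 without Col-0 replicate 1. Neither difference passed the test in the fit to 12 arrays. SWEET10 passed without Col-7 replicate 2, which leaves the Col-7 array with a signal of 6.719, and SWEET13 passed in the fit to the 8 arrays of these groups.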

How the results depend on the processing

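Over the 42 log2 changes of the 7 SWEET genes tested, 492 values came from alternatives: 444 kept direction and side of the threshold, 11 no longer passed, 7 newly passed and 30 changed sign, 27 of them when 1 array was left out. With age, 1 gene in place of 2 was called under the offset of 10, quantile normalization, no filter, the filter at the 60th percentile and no trend (SWEET16 each time), 0 with the 4 arrays fitted alone, and 0 to 2 with an array left out: 0 without Col-0 at 14 d replicate 1, and SWEET16 alone without Col-0 at 14 d replicate 2 or Col-0 at 12 d replicate 2. In place of 0, the groups fitted alone gave 3 genes in ein2 (SWEET1, SWEET10, SWEET17) and 1 for the difference of aba2 and ein2 (SWEET13), and no filter gave 1 (SWEET4) in aba2 against Col-7 and 1 in each of its differences from etr1 and ein2. Leaving out an array, which also moved the calls over all probe sets (without Col-0 at 12 d replicate 1 to 417 in place of 63 in etr1 and to 465 in place of 0 in Col-7 against Col-0), gave 0 to 1 in etr1 (SWEET17), aba2 against Col-7 (SWEET10), aba2 against Col-0 (SWEET13), Col-7 against Col-0 (SWEET13) and the differences of aba2 from etr1 (SWEET13) and ein2 (SWEET10). A group left with 1 array is then assumed to vary like the others. The cause was not tested.

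Changes near 0 turned sign with other scaling: SWEET10 in Col-7 against Col-0 was 0.0476 at an offset of 150 (-0.03 at 50), and SWEET13 with age was -0.0268 at that offset and -0.0663 under quantile normalization (0.05 in the fit reported). With an array left out, the sign turned within these ranges. In etr1 they were -0.75 to 0.51 for SWEET1, -0.38 to 0.16 for SWEET2, -0.81 to 0.15 for SWEET10, -0.051 to 0.32 for SWEET11 and -1.06 to 0.85 for SWEET13. In aba2 against Col-7 they were -0.76 to 0.17 for SWEET1, -0.19 to 0.57 for SWEET2 and -0.15 to 0.42 for SWEET17. In aba2 against Col-0 they were -0.68 to 0.59 for SWEET1, -0.26 to 0.17 for SWEET11, -1.70 to 0.22 for SWEET13 and -0.10 to 0.68 for SWEET17. In Col-7 against Col-0 they were -0.38 to 0.88 for SWEET1, -1.04 to 0.97 for SWEET10, -0.22 to 1.69 for SWEET13, -0.34 to 0.14 for SWEET16 and -0.24 to 0.55 for SWEET17. With age they were -0.16 to 1.11 for SWEET1, -0.91 to 1.01 for SWEET13 and -0.16 to 0.63 for SWEET17. Under the filter at the 60th percentile SWEET10 and SWEET13 were not tested.

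The series' design text gives the arrays as 2 independent sets, but nothing says that a replicate number marks a set. Deviations of arrays with the same number correlated by 0.54 between Col-0 and Col-7 at 12 d, 0.49 between Col-0 and aba2 and 0.34 between Col-7 and aba2, and by -0.26 to 0.11 in the other pairs of groups. With 2 arrays a group this does not settle a pairing, and the numbers were not taken as pairs. With the replicate number as a block, 2 genes were called with age (SWEET16, adjusted p = 0.00585, and SWEET2, 0.0118) and 0 in every other comparison. No detection calls were used, so how far the 7 genes under the filter stand above background is unknown.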
